A study of Mus musculus with 24 samples.

Results

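Transcripts of 10 Krüppel-like factors (Klf2, Klf3, Klf4, Klf5, Klf6, Klf7, Klf9, Klf10, Klf13 and Klf15) were followed in mouse embryonic fibroblasts (MEFs) under activation of the kinase AMPK and inhibition of the kinase MTOR. The family was chosen by a measured value, the fall of Klf2 with the AMPK activator MK-8722 in wild-type (WT) cells and its absence in AMPK knockout (AMPK KO) cells, so the MK-8722 responses are a description, with no p-value given and nothing inferred from them. The 10 genes are members of a table of 55487 genes that holds 7 further Klf genes. All 10 passed the filter on low counts, among 15828 genes tested. The rule was a list of names, so no threshold on a value divided members from other genes.

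Poly(A) RNA was sequenced from 24 libraries in 6 groups of 4. WT and AMPK KO MEFs each received DMSO as vehicle, MK-8722, or torin1, an inhibitor of MTOR. By the methods of the study, the AMPK KO line lacks both Prkaa1 and Prkaa2, the genes of the catalytic AMPK subunits, and both lines came from another laboratory. Whether either line is 1 clone is not given in the sources used here. WT cells were at passage 12 to 15 and AMPK KO cells at passage 16 to 19, with 1 library of each passage in every group. A difference between genotypes therefore cannot be told apart from a difference between the lines in passage or history. Bulk RNA also cannot tell fewer cells of a type apart from less RNA per cell.

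Library totals ran from 26900240 to 34192685 estimated counts, and RNA integrity numbers from 9.7 to 10.0. Counts summed over Prkaa1 stood at 71.3 to 84.5 CPM (counts scaled to library size) in WT libraries and 65.6 to 82.5 CPM in AMPK KO libraries, and those of Prkaa2 at 3.22 to 9.01 and 2.34 to 5.71 CPM. These ranges overlap. A sum over a whole gene does not show a lost exon, so it does not check the genotype label, and AMPK KO means the libraries labelled so. Of 10 fibroblast markers, Fn1 and Vim were abundant in every group, whereas Dcn averaged at most 0.20 CPM and Lum at most 0.01 CPM in any group. The summed fibroblast markers ranged over 11095 to 17097 CPM in WT and 4768 to 6833 CPM in AMPK KO libraries, and the summed smooth muscle markers over 1276 to 3081 and 453 to 589 CPM.

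Krüppel-like factors are transcription factors with zinc fingers at the C-terminal end that bind GC-rich and CACCC elements. They are commonly sorted by their partners. KLF3 recruits the corepressor CtBP, KLF2, KLF4, KLF5, KLF6 and KLF7 act largely as activators with acetyltransferases, and KLF9, KLF10 and KLF13 bind the SIN3A corepressor. KLF15 stands apart and is known for control of amino acid and glucose metabolism. Several members are rapidly induced and short-lived, and KLF2 and KLF4 are known as targets of the ERK5 and MEF2 arm in endothelial cells.

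In GRCm38 the 10 genes lay on 10 chromosomes. Klf2 (ENSMUSG00000055148) occupied chromosome 8, 72319033 to 72321656 on the plus strand, with 3 exons in its only annotated transcript, and Klf4 (ENSMUSG00000003032) occupied chromosome 4, 55527143 to 55532466 on the minus strand. Klf6 (ENSMUSG00000000078) lay on chromosome 13 at 5861482 to 5870394, Klf10 (ENSMUSG00000037465) on chromosome 15 at 38291463 to 38300706 and Klf15 (ENSMUSG00000030087) on chromosome 6 at 90462576 to 90475238. The longest gene was Klf7 (ENSMUSG00000025959), on chromosome 1 from 64029447 to 64122282, followed by Klf13 (ENSMUSG00000052040), on chromosome 7 from 63886351 to 63938915. Klf3 (ENSMUSG00000029178) was found on chromosome 5 at 64803388 to 64832901, Klf5 (ENSMUSG00000005148) on chromosome 14 at 99298691 to 99315036 and Klf9 (ENSMUSG00000033863) on chromosome 19 at 23141226 to 23168134. Promoter windows from RefSeq (GRCm38.p6), 250 bases before the start, were found for 8 of the 10 members. The windows of Klf2 and Klf4 are shown because these genes gave the largest drug responses among the well-expressed members. Capitals mark the short CREB motif TGACG on either strand, the MEF2 motif, and the E-box CACGTG that TFEB and TFE3 bind. The first window is chr8:72318812-72319032 on the plus strand, which stops at the start of the GENCODE gene, and the second is chr4:55532476-55532725 on the minus strand.
Klf2: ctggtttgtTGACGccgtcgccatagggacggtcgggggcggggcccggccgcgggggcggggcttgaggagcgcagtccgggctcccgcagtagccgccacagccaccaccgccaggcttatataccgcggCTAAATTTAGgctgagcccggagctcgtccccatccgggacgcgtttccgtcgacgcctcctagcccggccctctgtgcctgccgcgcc
Klf4: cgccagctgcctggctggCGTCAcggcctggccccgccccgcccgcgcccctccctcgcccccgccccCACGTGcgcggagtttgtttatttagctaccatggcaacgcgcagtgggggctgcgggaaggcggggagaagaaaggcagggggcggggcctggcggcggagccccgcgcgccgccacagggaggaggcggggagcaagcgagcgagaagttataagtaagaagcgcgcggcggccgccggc

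A MEF2 match was found in the window of Klf2 and in no other member window, against 2.92% of 32851 windows of all genes. It lay 118 to 109 bases before the RefSeq start, which is downstream of the end of the printed Klf2 sequence. The CREB motif occurred in 5 of 8 member windows (Klf2, Klf4, Klf9, Klf13 and Klf15) against 17.8% of all windows, and the E-box in 3 of 8 (Klf4, Klf6 and Klf15) against 6.02%. GC boxes (GGGCGG) were present in 7 of 8 member windows against 32.7% of all. All motifs were searched on both strands, and some GC boxes overlapped one another. Motifs and GC content were taken over the full 250 bases before the RefSeq start. For Klf2, Klf3, Klf6 and Klf7, some or all of these bases lie inside the GENCODE gene. The GC content of the 8 windows was 59.2% to 78.4% against a median of 52.4% over all windows. The matches describe letters and are not measured sites.

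Levels of the members were compared per length, as TPM (transcript abundance scaled for length and depth) summed over the transcripts of a gene. In WT cells with DMSO, Klf6, an early-response factor of wound repair, was highest at 67.0 ± 1.84 TPM (SD, n = 4). Klf3 followed at 42.6 ± 2.42 TPM and Klf5, which promotes proliferation in epithelial and smooth muscle cells, at 29.6 ± 3.32 TPM (SD, n = 4 each). Klf10 and Klf2 came next at 20.4 ± 1.22 and 20.2 ± 2.03 TPM, a pair that did not differ beyond its spread. Klf4 and Klf13, at 17.1 ± 3.38 and 16.0 ± 1.30 TPM, overlapped as well. Klf7, known from neurite growth, stood at 11.1 ± 0.975 TPM, Klf9 at 8.32 ± 0.931 TPM and Klf15 at 0.0765 ± 0.0563 TPM. Klf15 rested on 0 to 6 estimated counts per library, so its level is barely above none at this depth.

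In AMPK KO cells with DMSO, Klf3 and Klf6 shared the top at 27.9 ± 1.27 and 27.02 ± 0.791 TPM (SD, n = 4 each), and Klf10 followed at 23.8 ± 1.30 TPM. Klf3 and Klf6 overlapped, and exchanged ranks when CPM per kilobase of effective length was used in place of TPM. Klf2, at 13.5 ± 2.18 TPM, lay within the spread of Klf13, at 14.5 ± 2.49 TPM. The transcript share differed among members. Klf2 had a single annotated transcript, whereas the leading transcript of Klf3 carried a median of 45.8% of the TPM among 9 transcripts and that of Klf4 91.5% among 3.

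**Figure D1:**
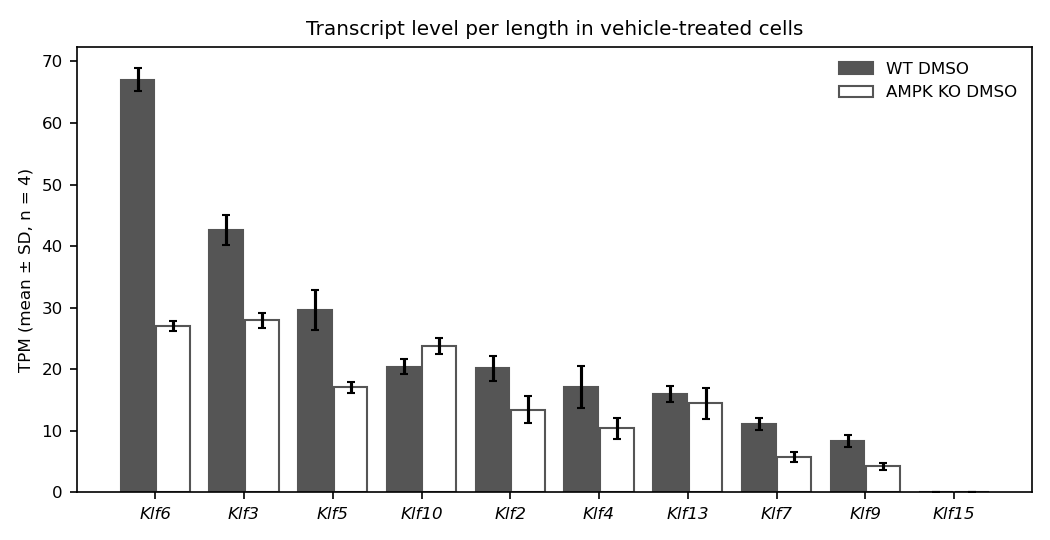
TPM of each member in WT (filled bars) and AMPK KO (open bars) cells with DMSO, as mean ± SD of 4 libraries on a linear axis from 0, ordered by the WT mean. Klf6 stands at 67.0 and 27.02 TPM, and Klf10 at 20.4 and 23.8 TPM.

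MK-8722 gave the comparison on which the family was selected, and its values are given as a description. Klf2, a factor of endothelial quiescence and T cell trafficking, measured 22.04, 22.05, 22.6 and 26.8 CPM in the WT DMSO libraries and 3.13, 3.18, 3.46 and 4.97 CPM with MK-8722. All 4 treated libraries were below all 4 vehicle libraries, and the log2 fold change (log2FC) was -2.66 (SE 0.20), a level 6.34-fold lower. In AMPK KO the libraries read 12.7, 13.2, 14.4 and 17.9 CPM with DMSO and 14.5, 14.5, 14.5 and 16.2 CPM with MK-8722. These groups overlapped, with a log2FC of 0.03 (SE 0.17), and the response in AMPK KO minus that in WT was 2.70 (SE 0.26). The summed endothelial markers also moved in this comparison, from 0.878 to 1.39 CPM per library with DMSO to 4.48 to 8.72 CPM with MK-8722 in WT, and in AMPK KO they ranged over 1.59 to 2.10 and 1.42 to 1.64 CPM. Of the 6 markers, Kdr averaged 0.888 and 6.53 CPM in WT, whereas the defining markers Cdh5, Tie1 and Pecam1 averaged at most 0.101 CPM in both WT groups. The part of these markers in the Klf2 result was not tested.

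The other activator-type members moved by smaller amounts in WT with MK-8722. Klf4, a reprogramming factor and growth arrest gene, read 25.1, 28.5, 36.1 and 37.1 CPM with DMSO and 14.9, 15.1, 26.0 and 27.6 CPM with MK-8722, giving overlapping groups and a log2FC of -0.60 (SE 0.17). Klf7 was lower by 0.43 on the log2 scale (SE 0.077) and Klf5 higher by 0.53 (SE 0.097), neither with overlap between groups, and Klf6 differed by 0.06 (SE 0.086). In AMPK KO the log2FC values of these genes were 0.18 for Klf4, 0.10 for Klf7, -0.09 for Klf5 and -0.02 for Klf6, and each pair of groups overlapped.

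Among the SIN3A-binding members, Klf9, a gene induced by glucocorticoids and thyroid hormone, stood at 24.3 ± 2.79 CPM with DMSO and 36.4 ± 2.74 CPM with MK-8722 in WT (SD, n = 4 each). The groups did not overlap, and the log2FC was 0.58 (SE 0.13). In AMPK KO its log2FC was 0.02 (SE 0.14). Klf10, known as a TGF-beta-inducible early gene, showed log2FC values of -0.25 (SE 0.082) in WT and -0.29 (SE 0.081) in AMPK KO, and its AMPK KO groups did not overlap. Klf13, a regulator of the chemokine gene Ccl5 in T cells, gave -0.05 (SE 0.089) in WT and 0.29 (SE 0.088) in AMPK KO, and Klf3 gave 0.10 (SE 0.045) and -0.10 (SE 0.046).

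Klf15 was counted 0 to 6 times per library in WT with DMSO and 20 to 33 times with MK-8722. The CPM values did not overlap, at 0 to 0.188 against 0.779 to 1.21, and the log2FC was 2.96 (SE 0.58). In AMPK KO it was 1.24 (SE 0.61), carried by replicate 2 with 29 counts where the other 3 libraries had 4 to 7, and 0.15 without that replicate. Without it the response in AMPK KO minus that in WT moved from -1.72 to -2.80. Read beside the whole table, 6 of 10 members passed an adjusted p of 0.05 and a fold change of 1.2 in WT (3 higher, 3 lower) where 15.7% of all genes did, 0 of 10 in AMPK KO where 1.56% did, and 5 of 10 in the difference between genotypes where 12.8% did. Groups did not overlap for 6 members in WT, against 25.5% of all genes, and for 1 in AMPK KO, against 11.7%. Because this comparison chose the members, nothing is read from these counts.

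**Figure D2:**
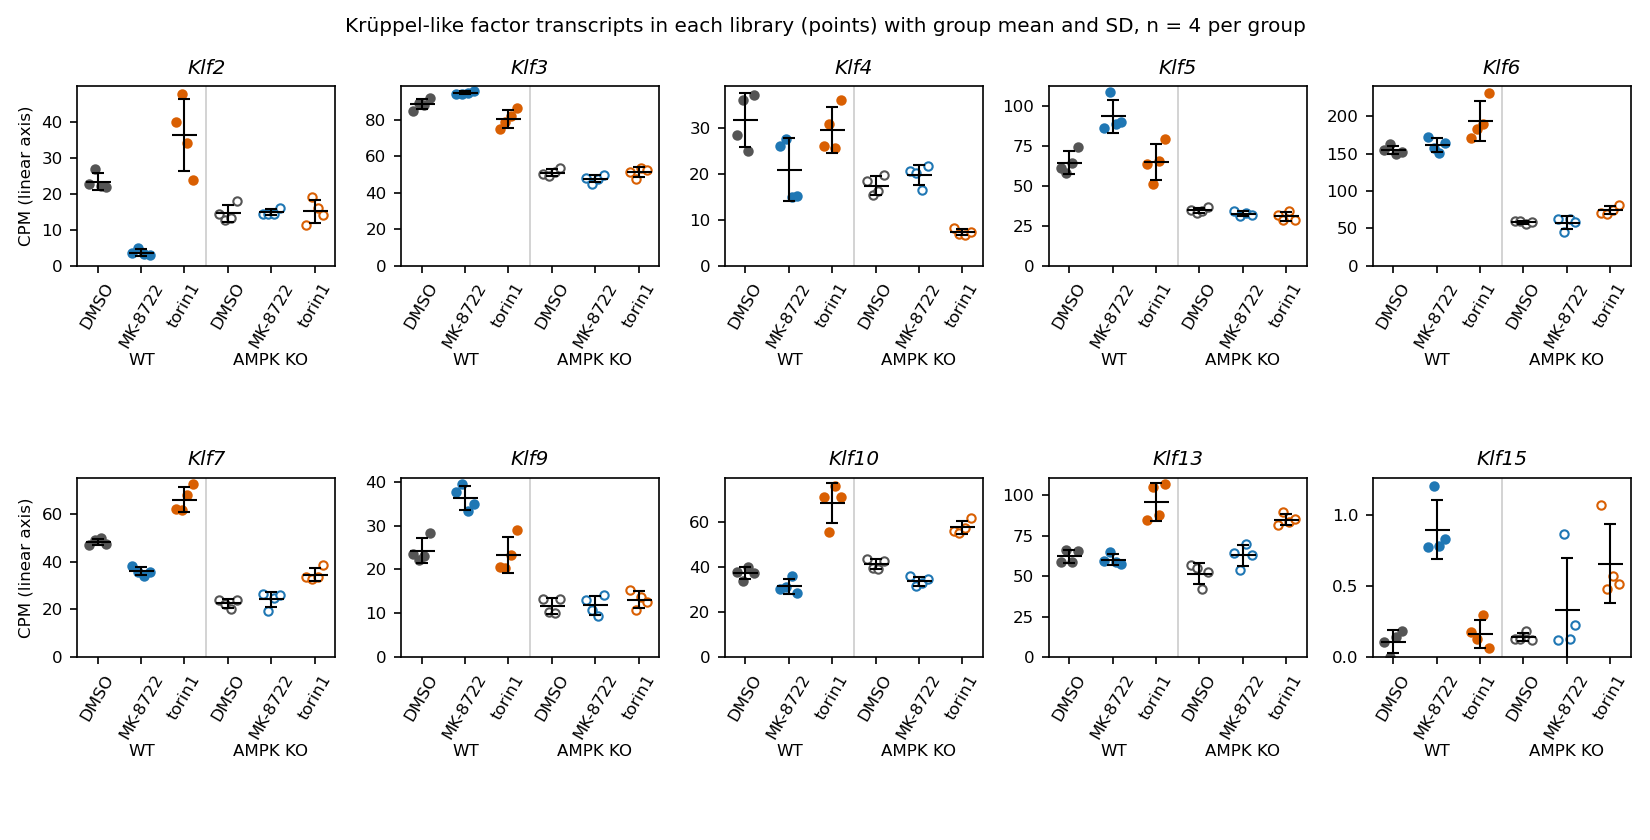
CPM of each member in every library (points) by genotype and treatment, with group mean and SD (n = 4), on linear axes from 0 (the lower SD bar of Klf15 in AMPK KO with MK-8722 is cut at 0). In WT, Klf2 stands at 3.13 to 4.97 CPM with MK-8722 and at 23.9 to 47.7 CPM with torin1, and in AMPK KO Klf4 stands at 6.79 to 8.20 CPM with torin1.

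Torin1 raised 5 members in WT cells (Klf2, Klf6, Klf7, Klf10 and Klf13) and lowered none, and it raised 5 and lowered 1 in AMPK KO cells. These counts compare with 47.6% of all tested genes called in WT and 43.5% in AMPK KO, so shares of 5 and 6 of 10 members are near the background. The median log2 fold change of the 10 members was 0.38 in WT and 0.26 in AMPK KO, against 0.04 and 0.06 over all genes. Groups did not overlap for 4 members in WT and 6 in AMPK KO, where 51.8% and 53.8% of all genes did not. The edgeR quasi-likelihood test was used, with Benjamini-Hochberg adjustment over 15828 genes (its adjusted p is given as FDR), and the DMSO libraries in them are the same ones that served the comparison which chose the family.

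Klf10 gave the largest called torin1 response in WT. It read 34.01, 37.4, 38.05 and 40.2 CPM with DMSO and 55.7, 71.2, 71.3 and 76.1 CPM with torin1, and all treated libraries were above all vehicle libraries. The log2FC was 0.87 (SE 0.080, edgeR FDR = 1.7e-09). In AMPK KO its libraries read 39.1, 39.7, 42.7 and 43.8 CPM with DMSO and 55.4, 56.1, 57.5 and 62.1 CPM with torin1, again without overlap, a log2FC of 0.48 (SE 0.079, edgeR FDR = 1.5e-05). The response was smaller in AMPK KO by 0.39 on the log2 scale (interaction -0.39, SE 0.11, edgeR FDR = 0.028). That call was lost without WT DMSO replicate 2 (edgeR FDR = 0.060) and without AMPK KO DMSO replicate 1 (edgeR FDR = 0.065).

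Klf13, Klf7 and Klf6 rose with torin1 in both genotypes. In WT, Klf13 stood at 62.2 ± 4.19 CPM with DMSO and 95.9 ± 11.6 CPM with torin1 (SD, n = 4 each), a log2FC of 0.63 (SE 0.087, edgeR FDR = 1.3e-06). The AMPK KO cells showed 51.5 ± 6.47 and 84.8 ± 3.35 CPM for it, with a log2FC of 0.72 (SE 0.088, edgeR FDR = 2.3e-07). Klf7 gave 0.45 (SE 0.075) and 0.61 (SE 0.079), with edgeR FDR = 1.7e-05 and 5e-07. Klf7 thus rose with torin1 in WT, while its value with MK-8722 in the same cells was -0.43. Klf6 gave 0.32 (SE 0.086) and 0.35 (SE 0.089), with edgeR FDR = 0.0024 and 0.0017. Its value fell under the 1.2-fold threshold without WT torin1 replicate 4 (0.22) and without AMPK KO torin1 replicate 4 (0.25). For none of these 3 genes did the difference between genotypes pass the test, with 95% intervals of the difference of -0.16 to 0.35 for Klf13, -0.06 to 0.39 for Klf7 and -0.23 to 0.29 for Klf6 on the log2 scale.

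Klf2 rose with torin1 in WT. Its WT torin1 libraries read 23.9, 34.1, 40.0 and 47.7 CPM, of which the lowest lay within the DMSO range. The log2FC was 0.64 (SE 0.16). In AMPK KO the torin1 libraries read 11.3, 14.2, 16.1 and 19.0 CPM, overlapping DMSO on both sides, with a log2FC of 0.06 (SE 0.17). The difference between genotypes was -0.58 (SE 0.24), which missed the threshold. It passed the threshold without WT torin1 replicate 4 (-0.74) and without AMPK KO torin1 replicate 2 (-0.78). The DMSO libraries in these values served the comparison that chose the family on Klf2. The values are therefore a description, with no FDR given.

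Klf4 was the member whose torin1 response differed most between genotypes among those called. In WT the torin1 libraries read 25.5, 26.0, 30.8 and 36.2 CPM, inside the DMSO range, with a log2FC of -0.10 (SE 0.16, edgeR FDR = 0.63). In AMPK KO the libraries read 15.3, 16.3, 18.5 and 19.7 CPM with DMSO and 6.79, 7.02, 7.26 and 8.20 CPM with torin1. All treated AMPK KO libraries were below all vehicle libraries, a level 2.39-fold lower (log2FC -1.25, SE 0.18, edgeR FDR = 3.3e-06). The interaction was -1.16 (SE 0.25, edgeR FDR = 0.0044). Klf4 and Klf10 were the 2 of 10 members called in the interaction, both more negative in AMPK KO, where 7.07% of all genes were called.

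Klf15, the metabolic member, rose with torin1 in AMPK KO from 4 to 6 counts per library to 16 to 35 counts (0.120 to 0.183 CPM against 0.480 to 1.08 CPM). The log2FC was 2.20 (SE 0.55, edgeR FDR = 0.0014). In WT the counts were 2 to 10 with torin1, and the value of 0.57 (SE 0.75) had a 95% interval of -0.97 to 2.14. The difference between genotypes was 1.62 (SE 0.97, edgeR FDR = 0.32) and was not detectable at this depth. The values of Klf3, Klf5 and Klf9 with torin1 ran from -0.17 to 0.16 over both genotypes. Of these, Klf3 in WT (-0.14, SE 0.045, edgeR FDR = 0.0093) passed the adjusted p but was under the 1.2-fold threshold.

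**Figure D3:**
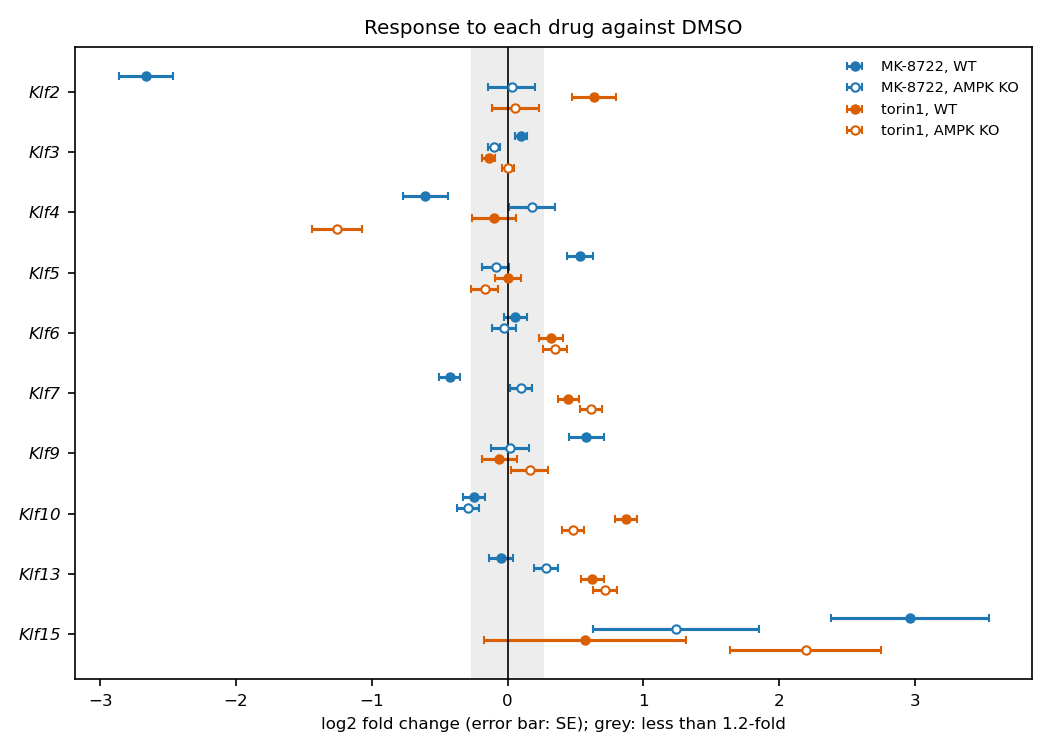
log2 fold change against DMSO (points) with SE (bars) for MK-8722 and torin1 in WT (filled) and AMPK KO (open), with grey marking changes under 1.2-fold. Klf2 lies at -2.66 with MK-8722 in WT and at 0.03 in AMPK KO, and Klf4 at -1.25 with torin1 in AMPK KO and -0.10 in WT.

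Between the genotypes, 8 of 10 members were lower in AMPK KO with DMSO and none was higher, where 56.9% of all genes were called (4116 lower, 4891 higher). The median log2 difference of the members was -0.83, against 0.02 over all genes, and groups did not overlap for 8 members against 64% of all genes. Klf6 showed the largest called difference. WT libraries read 150 to 163 CPM and AMPK KO libraries 55.4 to 60.2 CPM, a level 2.65-fold lower (log2 difference -1.41, SE 0.089, edgeR FDR = 9.9e-13). Klf7 (-1.10), Klf9 (-1.06), Klf5 (-0.90), Klf4 (-0.86) and Klf3 (-0.79) were lower without overlap, with edgeR FDR values from 1.5e-13 to 8.1e-05. Klf2 (-0.68) was also lower without overlap. These DMSO libraries served the comparison that chose the family on Klf2, so its value is a description, with no FDR given.

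Klf13 was lower by a small amount (-0.27, SE 0.089, edgeR FDR = 0.0090). That value dropped under the fold threshold without WT DMSO replicate 4 (-0.26) or without AMPK KO DMSO replicate 3 (-0.19), and was -0.13 (edgeR FDR = 0.14) when library size alone set the scale. Klf10 (0.14, SE 0.081, edgeR FDR = 0.12) was not called, but was called higher (0.28, edgeR FDR = 0.0035) with library size alone. That scale raised the median of all genes in this comparison to 0.15. Klf15 (0.32, SE 0.77) was too low to compare.

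With torin1, whose libraries played no part in choosing the family, 7 members were lower in AMPK KO and 1 was higher, where 54.6% of all genes were called (3742 lower, 4907 higher). Groups did not overlap for 8 members, against 61.8% of all genes. The median log2 difference of the members was -0.88, against 0.04 over all genes. Klf4 was 4.05-fold lower (log2 difference -2.02, SE 0.18, edgeR FDR = 6.9e-10), with 25.5 to 36.2 CPM in WT libraries against 6.79 to 8.20 CPM. Klf6 (-1.38), Klf2 (-1.26), Klf5 (-1.07), Klf7 (-0.93), Klf9 (-0.83) and Klf3 (-0.65) were also lower without overlap, with edgeR FDR values from 1.4e-12 to 6.3e-06. Klf15 was higher by 1.94 (SE 0.54, edgeR FDR = 0.0025).

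Klf10 and Klf13 were not called with torin1. Klf10 gave -0.25 (SE 0.078, edgeR FDR = 0.0073), just under the fold threshold, and passed it in most fits that left out 1 library. Klf13 gave -0.18 (SE 0.086, edgeR FDR = 0.072). It was called without WT torin1 replicate 1 (-0.31), WT torin1 replicate 3 (-0.30) or AMPK KO torin1 replicate 2 (-0.28). The summed fibroblast and smooth muscle markers were also lower in AMPK KO, led by Col1a2 (-6.46 with DMSO) and Tagln (-5.46), and all 8 tested fibroblast markers were called in that comparison (1 higher, 7 lower). The part of these differences between the lines in the Klf result was not tested. Epithelial markers summed to at most 6.87, macrophage to at most 4.71 and lymphocyte to at most 0.0360 CPM in any library. Of 3 tested endothelial markers, 2 were higher in AMPK KO with DMSO. Torin1 raised 1 of the 3 in each genotype, the VEGF receptor gene Kdr (1.42 in WT and 0.85 in AMPK KO), and the median of the 3 was 1.42 in WT and -0.05 in AMPK KO.

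**Figure D4:**
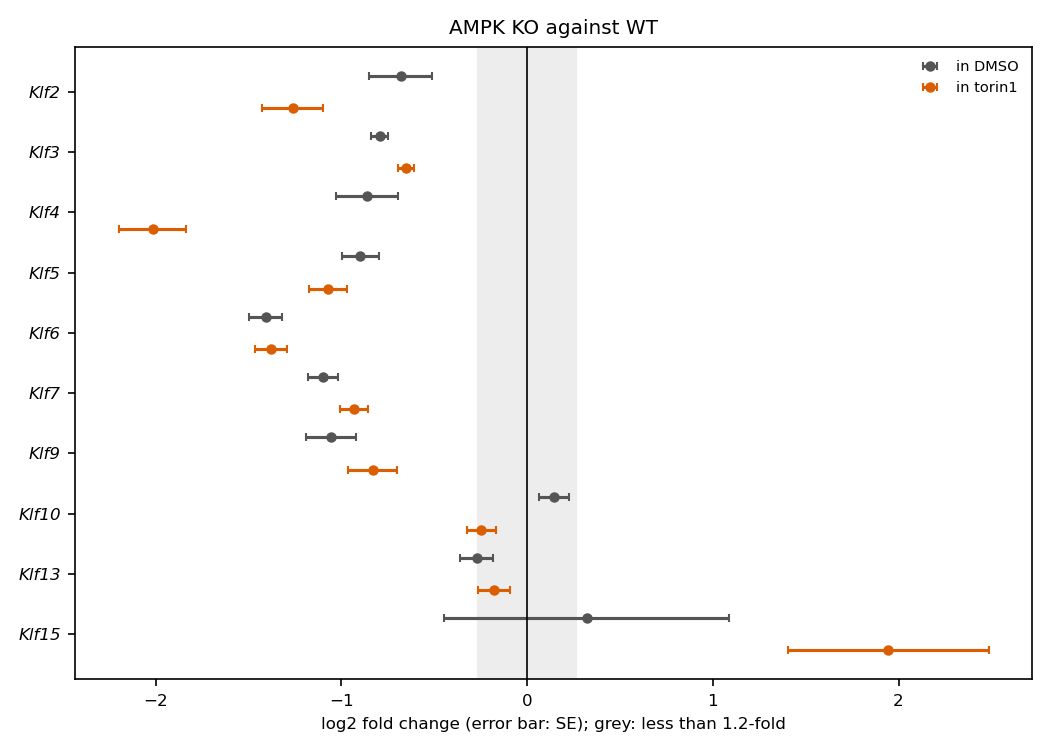
log2 difference between AMPK KO and WT (points) with SE (bars) for each member with DMSO (grey) and torin1 (orange), with light grey marking changes under 1.2-fold. Values left of 0 are lower in AMPK KO. Klf6 lies at -1.41 and -1.38, and Klf4 moves from -0.86 with DMSO to -2.02 with torin1.

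Passage varied within each group and was examined as a slope on the log2 scale per passage. No member was called (0 of 10, edgeR quasi-likelihood test, where 2.47% of all genes were called and 2642 genes had an unadjusted p under 0.05), and DESeq2 called none of the 9 for which it gave an adjusted p. The unadjusted p of Klf4, Klf10 and Klf15 was under 0.05. In WT, the passage 12 library was the highest of its group for Klf4, Klf5 and Klf9 in all 3 treatments. Klf4 in WT with DMSO read 37.1, 36.1, 28.5 and 25.1 CPM at passages 12, 13, 14 and 15, and with MK-8722 27.6, 26.0, 15.1 and 14.9 CPM. Its slope over all groups was -0.11 (SE 0.039, edgeR FDR = 0.14). In AMPK KO, the passage 16 library was the highest for Klf15 in all 3 treatments, and its slope was -0.28 (SE 0.13, edgeR FDR = 0.27). Klf10 had a slope of 0.05 (SE 0.018, edgeR FDR = 0.11), and its passage 19 library was the highest in all 3 AMPK KO treatments. The same held for Klf7, and the passage 16 library was the lowest for Klf13 in all 3 AMPK KO treatments. For Klf6, the passage 15 library was the lowest in all 3 WT treatments. The slope was shared by both genotypes, so opposite trends in WT and AMPK KO would offset each other in it.

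**Figure D5:**
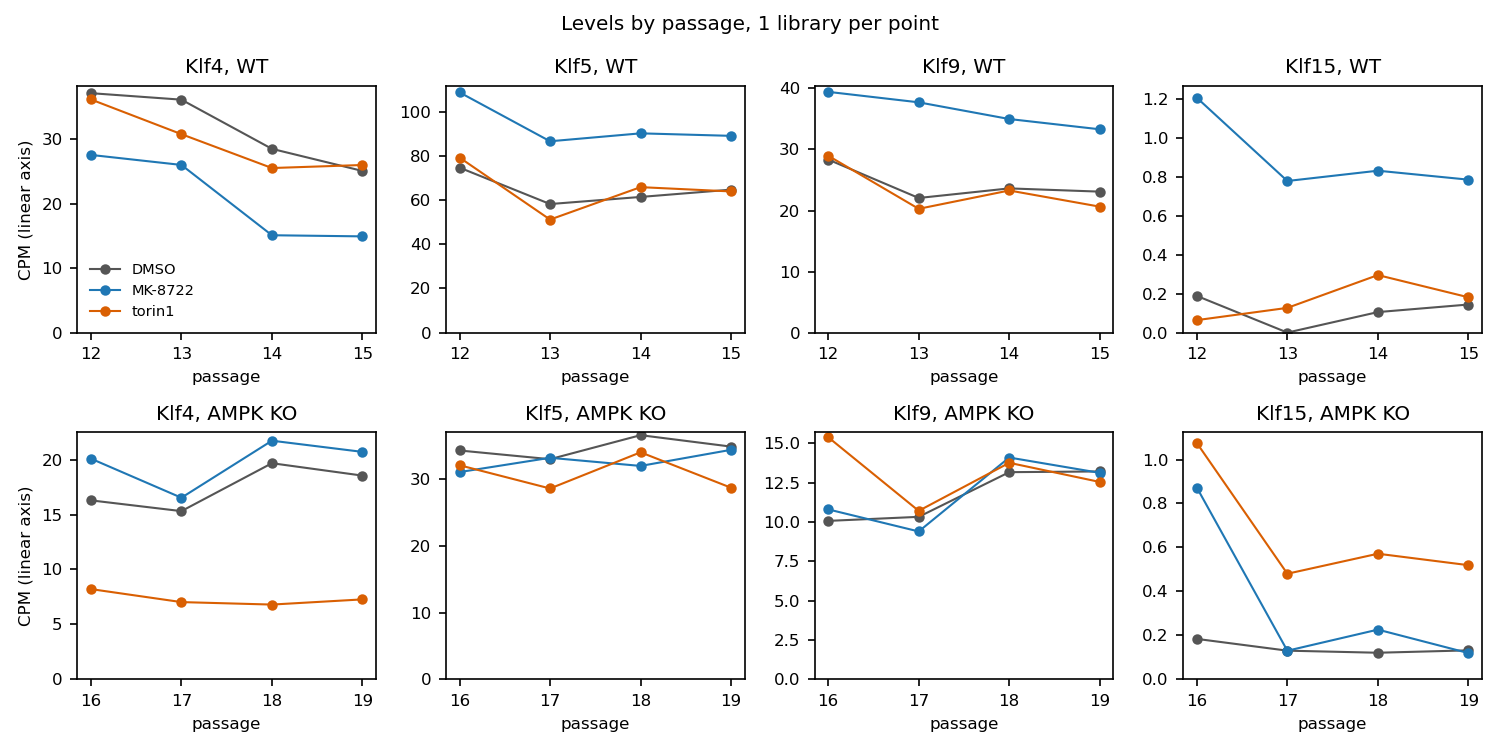
CPM against passage for Klf4, Klf5, Klf9 and Klf15 in WT (top) and AMPK KO (bottom), 1 library per point and 1 line per treatment, on linear axes from 0. In WT, the passage 12 points of Klf4, Klf5 and Klf9 are the highest of each line.

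Of the 7 further Klf genes in the table, 5 passed the filter, and Klf14 and Klf17 had at most 5 counts in any library. Torin1 raised 3 of the 5 in WT and lowered none, and raised 3 and lowered 1 in AMPK KO, beside 47.6% and 43.5% of all genes called. Klf11, which binds SIN3A as Klf10 does, had the largest rise, of 1.93 (SE 0.14) in WT and 2.07 (SE 0.15) in AMPK KO. Klf12, a CtBP-recruiting repressor, rose by 0.60 in WT and by 1.07 in AMPK KO. The AMPK KO value of Klf12 rests on at most 6 counts per library with DMSO and 12 with torin1. Klf16 fell by 0.43 in AMPK KO. Between genotypes, 4 of the 5 were lower and 1 was higher in AMPK KO with both DMSO and torin1, beside 56.9% and 54.6% of all genes. With DMSO, Klf12 averaged 12.4 ± 0.688 CPM in WT against 0.157 ± 0.0442 CPM in AMPK KO (log2 difference -6.26, SE 0.16, edgeR FDR = 5e-20). As a description, 1 of 5 was past both thresholds with MK-8722 in each genotype, beside 15.7% of all genes in WT and 1.56% in AMPK KO. These were Klf8 (-0.59) in WT and Klf11 (-0.70) in AMPK KO. The AMPK KO groups of Klf11 overlapped, at 2.49 to 3.81 CPM with DMSO and 1.36 to 2.83 CPM with MK-8722.

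Genes around the family were counted from lists chosen for known links, whose torin1 and genotype values rest on the same DMSO libraries. Their counts stand beside 47.6% of all genes called with torin1 in WT, 43.5% in AMPK KO and 56.9% between genotypes with DMSO, and several lie near these shares. Among the 8 tested genes of the related SP family, torin1 raised 2 and lowered 1 in WT and raised 4 in AMPK KO, and 5 were higher and 1 lower in AMPK KO with DMSO, with Sp6 at 2.55 (SE 0.27) the largest rise among those with a mean of at least 1 CPM. The ERK5 and MEF2 arm upstream of Klf2 and Klf4 held 8 tested genes. Torin1 lowered 3 of them in WT, with Map3k3, a kinase of that arm, at -0.65 (SE 0.031), and raised 2 and lowered 2 in AMPK KO. In AMPK KO with DMSO, 5 of these 8 were lower, led by Mef2c (-1.75) and Mef2a (-1.51), and 1 was higher. As a description, with MK-8722 in WT 3 of the 8 were past both thresholds and higher, Mef2c (0.59) and Mef2a (0.50) among them, where 15.7% of all genes were called. None was in AMPK KO, where 1.56% were. The WT groups of Mef2c overlapped, at 6.25 to 10.9 CPM with DMSO and 7.60 to 15.0 CPM with MK-8722, and those of Mef2a did not.

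Partners and regulators of KLF proteins moved in both directions. Of 9 cofactor genes, torin1 lowered 4 in WT, near the share over all genes, with Ctbp2 at -0.64 and Ctbp1 at -0.51, and lowered 3 and raised 1 in AMPK KO. Between genotypes with DMSO, 3 were higher and 4 lower in AMPK KO, with Ep300 at 0.52 and Hdac2 at -0.48. Of 7 ubiquitin ligase genes, torin1 raised 1 and lowered 2 in WT and raised 1 in AMPK KO, which was Btrc (0.52 and 0.49). With DMSO, 1 was higher and 2 were lower in AMPK KO, Smurf2 (-0.62) the lowest.

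Known targets and inducers were examined too. Of 7 tested endothelial targets of KLF2 and KLF4, torin1 raised 1 and lowered 2 in WT and raised 1 and lowered 3 in AMPK KO. Cdkn1a, a cell cycle inhibitor gene, fell by 1.34 and 0.67 on the log2 scale. As a description, with MK-8722 in WT 1 of the 7 was past both thresholds and higher and 1 lower, where 15.7% of all genes were called. The lower was S1pr1, a sphingosine receptor gene, at -0.45. Its WT groups overlapped, at 24.4 to 35.0 CPM with DMSO and 17.7 to 27.1 CPM with MK-8722. In AMPK KO 0 of the 7 were past both thresholds, where 1.56% were, and S1pr1 averaged 10.1 CPM with DMSO and 8.44 CPM with MK-8722. Of 6 tested genes of the glucocorticoid receptor and its targets, 3 were lower in AMPK KO with DMSO and 1 was higher, and the receptor gene Nr3c1 was among the lower at -1.08. With torin1, 2 of the 6 rose and 3 fell in WT, and 1 rose and 3 fell in AMPK KO, where Tsc22d3 was lowest (-1.32). As a description, 3 of the 6 were past both thresholds and lower with MK-8722 in WT, Tsc22d3 (a mean of 18.8 CPM with DMSO and 9.46 CPM with MK-8722) and Per1 (log2FC -0.35) among them, where 15.7% of all genes were called, and in AMPK KO 1 was higher, Tsc22d3 (0.54), where 1.56% were. Of 7 TGF-beta targets, 5 were lower in AMPK KO with DMSO, led by Ccn2 (-2.20), and torin1 raised 2 and lowered 1 in each genotype.

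The 5 genes whose log2 CPM was most like that of Klf2 over the 24 libraries, among 10123 genes with a mean of at least 5 CPM, were Rhob (Pearson r = 0.926), Nt5c3b (0.892), Ncoa5 (0.870), Prkab1 (0.858) and Arf2 (0.858). These correlations are a description over libraries that share groups and treatments. Rhob, which encodes a small GTPase, averaged 111 CPM with DMSO, 38.3 CPM with MK-8722 and 119 CPM with torin1 in WT, and 82.6, 85.6 and 60.2 CPM in AMPK KO. Prkab1, which encodes an AMPK beta subunit, averaged 56.2, 43.3 and 63.4 CPM in WT, and 48.3, 50.02 and 51.2 CPM in AMPK KO. Among the other members, r with Klf2 ran from -0.66 for Klf15 to 0.60 for Klf10.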

How the data were processed

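Poly(A) libraries of MEFs (6 groups, 4 libraries each) were sequenced as paired-end reads. By the methods of the study, the authors used the nf-core/rnaseq workflow with STAR on GRCm38 with an Ensembl annotation and options for molecular identifiers, and the submitters' processing notes also name Salmon. The deposited gene table holds estimated counts, not normalized, and the deposited transcript tables hold TPM and effective lengths. The gene counts equalled the sums of transcript counts within 5.8e-11. Columns of each library were matched by its labels. The labels give the 4 libraries of a group 4 different passages, so p-values measure the spread between passages of a line and not between lines made separately. No pair of libraries of a group was a duplicate (chi-square per degree of freedom 3.52 to 26.5 over 36 pairs).

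Estimated counts were rounded, filtered (filterByExpr, 15828 genes, 99.96% of counts), scaled by TMM and tested with edgeR 4.0.16 (quasi-likelihood, R 4.3.3) over all 24 libraries, with Benjamini-Hochberg adjustment. Genes were called at FDR under 0.05 with at least a 1.2-fold change, the limits of the study (for the passage slope the FDR alone). CPM values use TMM library sizes. TPM was summed per gene. Alternatives were DESeq2 1.42.0, other scalings, filters, thresholds, a length offset, blocks and leaving out each library. Totals of 26900240 to 34192685 counts set the counting precision.

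Members and lists were chosen with earlier results of these data known. All 10 members are named. Each list of genes around the family contributes at most 4 names. These are its 2 strongest called rises and its 2 strongest called falls at a mean of at least 1 CPM. The further Klf genes and the cell type markers were named outside this rule, some of them below 1 CPM. The genes most like Klf2 are the 5 with the highest r. One gene of these lists is not reported here.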

Additional observations from a re-analysis of the deposited data

Results flagged for a closer look

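In 7 of 60 sets of 4 libraries (10 members in 6 groups), the highest library lay far from the other 3, judged by its gap to the nearest library divided by the range of the set against Dixon's 95% limit for 4 values. Both ends of each set were examined, and for independent, normally distributed values chance alone passes the limit at either end in about 1 in 20 sets. These sets share the same 24 libraries, so they are not independent. For Klf2 the ratio was 0.986 in AMPK KO with MK-8722 (replicate 4, 16.2 CPM against 14.5 CPM in the others) and 0.875 in WT with DMSO (replicate 2, 26.8 CPM against 22.04 to 22.6). It was 0.947 for Klf3 in WT with MK-8722, where the whole range was 94.3 to 95.9 CPM, and 0.838 for Klf5 in WT with MK-8722 (replicate 2, 109 CPM against 86.5 to 90.1). Klf15 gave 0.876 in WT with MK-8722, 0.858 in AMPK KO with MK-8722 and 0.847 in AMPK KO with torin1, on at most 35 counts per library. The high Klf5 and Klf15 libraries were the passage 12 library of WT with MK-8722 and the passage 16 libraries of AMPK KO.

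The response to torin1 differed between genotypes for Klf4, by -1.16 on the log2 scale, and for Klf10, by -0.392 (AMPK KO minus WT), both by the interaction test of edgeR. With MK-8722, each treated WT library lay on one side of the mean log2 value of its DMSO group and each treated AMPK KO library on the other for Klf2 (difference 2.7), Klf3 (-0.198) and Klf5 (-0.619). No p-value is given for these 3 differences, which belong to the comparison on which the family was selected. For Klf2 the AMPK KO side was small, with a log2FC of 0.03.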

How the results depend on the processing

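Of 3108 values of single members under an alternative, 3058 were counted as unchanged, 16 fell short of the threshold and 32 newly passed it. Another 2 moved by more than the spread between libraries, and no value called in either fit reversed. For torin1, genotype and passage, unchanged meant the same side of the threshold. For MK-8722 it meant a shift under the spread between libraries, whichever side of the threshold the value took. Of 311 counts of called members, 289 stayed within 1.5 times the count reported. With MK-8722 in AMPK KO, 0 members were counted, beside 247 of all genes. The count was 1 with library size alone (235 of all genes) and with no filter on low counts (276). It was also 1 with at least 10 counts in every library (257) and with the compared libraries alone (345). With DESeq2, whose Wald test called 363 of all genes, it was 2. A 1.5-fold threshold left 3 members with MK-8722 in WT, 3 in its interaction with genotype, 3 with torin1 in WT and 1 in the torin1 interaction. Calls over all genes were not counted at that threshold, so nothing is read from these counts. An offset for effective transcript length left 3 in the MK-8722 interaction and 1 in the torin1 interaction, where Klf10 had an edgeR FDR of 0.071. Over all genes that offset gave 1644 and 793 calls. Leaving out each library in turn gave 0 to 1 members with MK-8722 in AMPK KO, 3 to 6 in the MK-8722 interaction, 1 to 3 in the torin1 interaction and 0 to 1 for the passage slope, where Klf10 (0.05, edgeR FDR = 0.044) was called without WT torin1 replicate 2. Over all genes, the fits that left out 1 library gave 121 to 307, 1728 to 2404, 859 to 1328 and 115 to 561 calls in these comparisons. The cause of these changes was not tested, apart from those that the threshold itself sets. With library size alone, the median log2 value of all genes was 0.12 to 0.15 in the torin1 and genotype comparisons, against 0.02 to 0.06 with TMM. Klf15 rests on 0 to 35 counts per library, and the sources used here name 1 line per genotype.

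Deviations from the group means correlated with a median r of 0.129 between libraries of the same passage and genotype (-0.0114 to 0.367, 24 pairs). Between other passages of a genotype the median was -0.0364 (-0.249 to 0.0747, 72 pairs). Between libraries of the same replicate number it was 0.0245 (-0.196 to 0.25, 60 pairs). By the median, libraries of a passage were thus more alike, but the labels do not say that they shared a culture or day. The main tests used neither number as a block. With passage as a block, 2 members were past both thresholds with MK-8722 in AMPK KO, and Klf2 passed the threshold in the torin1 interaction (-0.56). With the replicate number as a block, 1 was past both thresholds with MK-8722 in AMPK KO, beside 246 of all genes. Over all genes, the passage block raised the calls from 247 to 729 with MK-8722 in AMPK KO and from 1119 to 1861 in the torin1 interaction, and the replicate-number block lowered those of the passage slope from 391 to 186. The slope had 204 calls with the length offset and 699 with the DESeq2 Wald test, and MK-8722 in AMPK KO had 137 with the offset. With MK-8722 in AMPK KO the calls over all genes were 130 without DMSO replicate 1, 121 without MK-8722 replicate 1 and 147 without MK-8722 replicate 4 of AMPK KO. Those of the passage slope were 115 to 209 without WT DMSO replicate 3 or 4, WT MK-8722 replicate 2 or 3, AMPK KO DMSO replicate 3 or AMPK KO MK-8722 replicate 2. Neither block moved another count of members by over 1.5 times, and the passage block could not be fitted to the genotype comparisons, where passage and genotype coincide.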
